A study of Rattus norvegicus with 9 samples.

Results

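Genes that build, modify and carry heparan sulfate and chondroitin sulfate were followed in the rat dorsal hippocampus across prenatal valproic acid (VPA) exposure and oxytocin (OXT) treatment. They were taken by symbol, as the Hs2st, Hs3st, Hs6st, Ndst, Chst, Chsy, Chpf and Sulf1 or Sulf2 genes, the Ext, Extl, Glce and Xylt enzymes, and the syndecan, glypican, aggrecan, brevican, neurocan, versican, Cspg4 and Cspg5 core proteins. A gene counted where a probe set carried its symbol and no other, and the probe set with the highest mean stood for the gene. The rule found 55 genes among the 18166 genes that carry 1 symbol on the 30429 probe sets, and each of the 55 had 1 such probe set. Hs3st4, Hs6st3, Chst6, Gpc1 and Chpf2 were not among them, and Chpf2 was measured only on a probe set that also carries Mir671.

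RNA was measured on 9 Rat Gene 2.0 ST arrays, 1 per male Sprague-Dawley rat, and the 3 groups of 3 rats were control pups given vehicle (control), VPA pups given vehicle (vehicle-treated VPA) and VPA pups given OXT (OXT-treated VPA). Dams of both VPA groups received VPA once by mouth during gestation at 600 mg/kg, and control dams received water. OXT was given intranasally to VPA pups at 12 μg/kg/d from postnatal day 21 to day 55, no OXT group without VPA was analysed, and RNA was taken on day 56, at 8 weeks of age. Control pups came from 2 dams and VPA pups from 3 dams, the litter of each array is not known, and the tests therefore treat littermates as independent. Each value is a log2 expression level made by the authors, on which a difference of 1 is a doubling, and the number of arrays limits the precision. A level of 1 gene cannot be set against that of another, since probe sets differ in brightness.

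Heparan sulfate and chondroitin sulfate are long sugar chains that grow on a shared linker attached to core proteins at the cell surface and in the extracellular matrix. Sulfotransferases place sulfate at defined positions as the chain grows in the Golgi, and the resulting pattern sets which growth factors, morphogens and synaptic adhesion molecules the chain binds. In the brain, heparan sulfate on syndecans and glypicans takes part in synapse formation, whereas chondroitin sulfate proteoglycans of the aggrecan family form perineuronal nets around many inhibitory neurons.

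Array medians ranged from 5.75 to 5.82 in log2, and 10955 to 11189 probe sets on an array exceeded 6.6, the level that the study asks of a gene in at least 1 group. Of the 55 genes, 41 had a group mean over 6.6 and 14 had none. Choroid plexus markers stood apart in the vehicle-treated VPA group, where the mean log2 level of 25 markers was between 5.65 and 6.07, compared with 6.89 to 7.50 in control arrays and 6.01 to 7.79 in OXT-treated VPA arrays. Transthyretin (Ttr), the defining product of that epithelium, was at 12.03 to 12.59 in control arrays, at 6.80 to 8.76 in vehicle-treated VPA arrays, and at 12.83, 12.03 and 5.91 in OXT-treated VPA arrays 1 to 3. The mean of 12 thalamus markers was between 6.74 and 7.06 in control arrays, was 8.07 and 7.77 in vehicle-treated VPA arrays 1 and 2 and 8.26 and 8.12 in OXT-treated VPA arrays 1 and 2, and was 6.82 and 6.89 in array 3 of these groups. Markers of hippocampal principal cells, which check the labelled tissue, averaged 7.78 to 8.06 over 9 genes in control arrays, 7.34 to 7.77 in vehicle-treated VPA arrays and 7.60 to 7.78 in OXT-treated VPA arrays, and 3 of the 9 were lower than control at an unadjusted p under 0.05 in each VPA group. The pyramidal cell gene Neurod6 had group means of 9.70 to 10.26, while Spink8 and Tdo2 had at most 5.06 and 3.52. Of 8 endothelial markers, 4 were higher than control in vehicle-treated and 5 in OXT-treated VPA rats, with means of 7.18 to 7.25 in control, 7.34 to 7.49 in vehicle-treated VPA and 7.44 to 7.56 in OXT-treated VPA arrays. Of 12 markers of meninges and fibroblasts, 2 and 6 were higher than control in these groups, and 6 were higher in OXT-treated than in vehicle-treated VPA rats. Fits with the choroid plexus or thalamus markers as a covariate are given below for single genes. The part of the other cells in the differences below was not tested. These arrays hold RNA of whole tissue, so fewer cells of a type and less RNA per cell cannot be told apart.

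Between vehicle-treated VPA and control rats, 5 of the 55 genes were higher at an unadjusted p under 0.05 and 3 were lower, against 5% and 3.98% of all probe sets. The higher genes were Ndst4, Hs6st2, Sdc3, Chst8 and Chst9, and the lower genes were Sulf1, Sulf2 and Chst3. Between OXT-treated VPA and control rats, 5 genes were higher (3.87% of all probe sets) and 2 were lower (3.51%), namely Ndst4, Hs6st2, Sdc3, Chst8 and Gpc3, and Sulf2 and Acan. Between the VPA groups 0 genes were higher or lower at that limit, where 1.86% and 2.81% of all probe sets were. The F over the 3 groups had an unadjusted p under 0.05 for 7 genes (12.7%), compared with 7.54% of all probe sets. They were Ndst4, Hs6st2, Sdc3, Chst8, Gpc3, Sulf2 and Chst3. Sulf1, Chst9 and Acan, each called between a pair of groups, did not pass the F. After adjustment over all probe sets, limma called 0 of the 55 genes and 0 of the 30429 probe sets in each of these comparisons, so every call below is an unadjusted one and is so named. Both comparisons against control use the same 3 control arrays and are not independent of each other.

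The 55 genes did not all move in 1 direction. Their median log2 difference between vehicle-treated VPA and control rats was -0.04 (0.01 over all probe sets). In that comparison 19 genes lay above and 36 below 0, a split that was not counted over all probe sets. The median size of the difference, taken without its sign, was 0.11 for the 55 genes and 0.11 for all probe sets. Between the VPA groups the median difference was 0.04 (0.00 over all) and the median size 0.06 (0.09 over all), while between OXT-treated VPA and control rats they were -0.01 (0.01) and 0.13 (0.10). Single genes differed by -0.85 to 0.93, by -0.28 to 0.42 and by -0.50 to 1.03 in these comparisons. The plot of all differences by role shows that most enzymes and core proteins lay near 0. A few genes lay away from it, among them the modifying enzymes Ndst4 and Sulf1 and the core protein Sdc3.

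**Figure D1:**
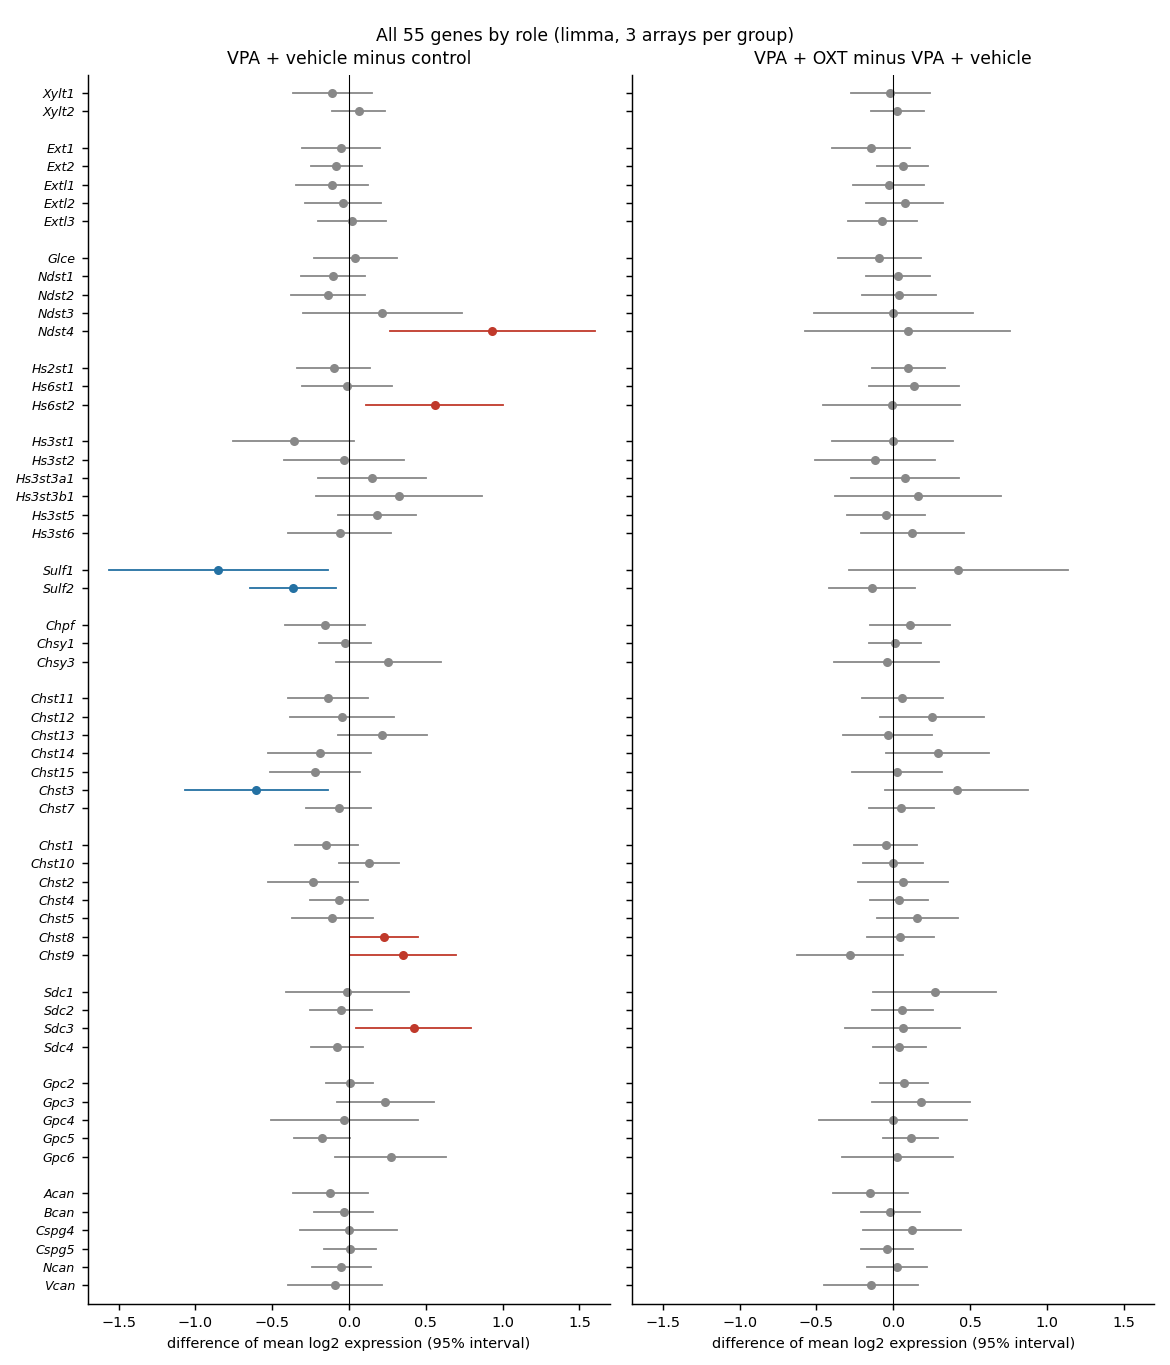
Difference of mean log2 expression (points) with its 95% interval from limma (lines, 3 arrays per group) for each of the 55 genes, in blocks by role. The left panel gives vehicle-treated VPA minus control, with genes at an unadjusted p under 0.05 in red (higher, 5) or blue (lower, 3), and the right panel gives OXT-treated minus vehicle-treated VPA, where 0 genes passed.

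The arrays of vehicle-treated VPA and control rats did not overlap for 10 of the 55 genes (18.2%), compared with 13.6% of all probe sets. Beside Ndst4, Sdc3, Chst8, Chst9, Sulf1 and Sulf2, these were Hs3st1, Chst2, Chst15 and Gpc5. For OXT-treated VPA and control rats there were 9 such genes (16.4%, and 12% of all probe sets), and for the VPA groups there was 1, Gpc5 (1.82%, and 6.33% of all probe sets). Within groups the arrays of these genes differed little, with a median standard deviation (SD) of 0.14 compared with 0.16 for all probe sets. The SD was smallest for Gpc2 (0.03), a glypican, and largest for Sulf1 (0.45) and Ndst4 (0.42), which are among the called genes.

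Ndst4, Hs6st2, Sdc3, Chst8 and Sulf2 were called in both VPA groups against control, and their promoters are shown because these genes differed from control in both groups. Each run is RefSeq sequence of the rat assembly GRCr8, 250 bases before to 50 bases after the annotated gene start, written 5′ to 3′ on the strand of the gene. Capitals mark GGGCGG or its reverse complement CCGCCC, the core of the GC box that transcription factors of the SP1 family bind.
Ndst4, chr2:216461293-216461592, plus strand: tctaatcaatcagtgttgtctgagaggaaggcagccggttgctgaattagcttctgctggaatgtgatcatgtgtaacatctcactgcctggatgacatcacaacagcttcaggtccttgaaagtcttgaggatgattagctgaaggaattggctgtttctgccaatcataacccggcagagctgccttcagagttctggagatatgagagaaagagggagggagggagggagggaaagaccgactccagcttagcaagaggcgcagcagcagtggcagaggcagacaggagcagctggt
Hs6st2, chrX:136182105-136182404, minus strand: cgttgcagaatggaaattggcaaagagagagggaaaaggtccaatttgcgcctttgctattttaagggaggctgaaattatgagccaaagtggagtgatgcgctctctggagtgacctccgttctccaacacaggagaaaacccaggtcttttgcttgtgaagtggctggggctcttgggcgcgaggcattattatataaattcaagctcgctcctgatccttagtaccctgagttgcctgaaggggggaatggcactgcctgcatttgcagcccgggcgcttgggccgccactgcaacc
Sdc3, chr5:148249542-148249841, plus strand: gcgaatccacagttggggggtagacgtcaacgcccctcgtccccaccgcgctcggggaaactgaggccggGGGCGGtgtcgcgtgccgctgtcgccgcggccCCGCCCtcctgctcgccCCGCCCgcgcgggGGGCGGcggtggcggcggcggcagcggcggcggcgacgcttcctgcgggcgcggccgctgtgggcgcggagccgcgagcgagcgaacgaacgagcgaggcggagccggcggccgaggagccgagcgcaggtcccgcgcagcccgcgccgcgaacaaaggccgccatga
Chst8, chr1:96572831-96573130, minus strand: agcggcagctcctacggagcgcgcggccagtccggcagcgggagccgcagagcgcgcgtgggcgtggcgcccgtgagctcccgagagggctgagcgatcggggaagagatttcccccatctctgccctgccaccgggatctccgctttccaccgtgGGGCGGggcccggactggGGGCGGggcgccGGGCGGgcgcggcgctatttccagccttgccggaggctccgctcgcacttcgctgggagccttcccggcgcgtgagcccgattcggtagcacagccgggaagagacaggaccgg
Sulf2, chr3:175323602-175323901, minus strand: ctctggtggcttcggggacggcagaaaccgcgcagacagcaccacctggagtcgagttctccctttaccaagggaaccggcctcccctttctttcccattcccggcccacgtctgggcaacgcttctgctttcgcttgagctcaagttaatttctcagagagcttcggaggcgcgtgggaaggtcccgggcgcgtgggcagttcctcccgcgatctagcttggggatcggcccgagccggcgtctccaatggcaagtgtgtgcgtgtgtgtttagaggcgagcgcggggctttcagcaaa
GGGCGG stands on neither strand of the windows of Ndst4, Hs6st2 and Sulf2, which hold 51.0%, 52.3% and 61.7% G and C. The window of Chst8 has 3 copies on the strand of the gene and that of Sdc3 has 2 on each strand, with 73.7% and 79.3% G and C. A promoter was matched for 45 of the 55 genes, and 33 of these (73.3%) hold the motif on either strand, compared with 33.1% of all 33469 promoters in the table and 41.8% of the 21851 of protein-coding genes. The 5 genes that differed in both groups include windows with and without these letters, and a match of letters does not show binding.

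The enzymes that start and lengthen the chains showed no call in any comparison. Xylt1 and Xylt2, which add the first sugar of the linker to a core protein, differed between vehicle-treated VPA and control rats by -0.11 and 0.06. Ext1 and Ext2, the polymerases of heparan sulfate, and the Ext-like genes Extl1, Extl2 and Extl3 differed by -0.11 to 0.02 in that comparison. Between OXT-treated VPA and control rats these genes differed by -0.20 to 0.04. Among the chondroitin polymerases, Chsy1 and Chpf differed by -0.02 and -0.16, whereas Chsy3 differed by 0.26 with a 95% interval from -0.09 to 0.60 (adjusted p = 0.638, limma).

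N-deacetylase/N-sulfotransferases replace the acetyl group of glucosamine with sulfate, which is the first modification of heparan sulfate and opens the way to the later ones. Ndst4 read 7.70, 7.34 and 7.41 in control arrays 1 to 3, 8.00, 8.61 and 8.64 in vehicle-treated VPA arrays, and 8.11, 8.21 and 9.21 in OXT-treated VPA arrays. Every array of the VPA groups was above every control array, and OXT-treated VPA array 3 was the highest of all. The level was 1.91-fold higher in vehicle-treated VPA than in control rats, a log2 difference of 0.93 ± 0.29 (SE, 3 arrays per group; adjusted p = 0.387, limma), and 2.04-fold higher in OXT-treated VPA rats, a difference of 1.03 ± 0.29 (adjusted p = 0.422). OXT-treated and vehicle-treated VPA rats differed by 0.09, with a 95% interval from -0.57 to 0.76.

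In the present fit, Ndst4 was the only gene of the 55 that met all criteria of the study for a differentially expressed gene. These are an F with unadjusted p below 0.05, a change above 1.5-fold in vehicle-treated VPA rats against control and a group mean over 6.6. Of all probe sets, with or without a symbol, 199 met them, which is not the study's own count of genes. The unadjusted call of Ndst4 held with each array left out in turn. It was then 0.82 to 1.14 between vehicle-treated VPA and control rats and 0.68 to 1.23 between OXT-treated VPA and control rats. With the mean of the choroid plexus markers as a covariate, Ndst4 differed between vehicle-treated VPA and control rats by 0.28 and was no longer called. The difference of OXT-treated VPA rats from control was then 0.90 and still called. These markers did not overlap between vehicle-treated VPA arrays (5.65 to 6.07) and control arrays (6.89 to 7.50). For this pair the fit therefore cannot tell group and marker level apart, here and for each gene below. A covariate of the thalamus markers was added after the data had been seen. With it the differences of vehicle-treated and OXT-treated VPA rats from control were 1.32 and 1.53. The other genes of the family showed no call. Ndst1 and Ndst2, the forms found in most tissues, differed between vehicle-treated VPA and control rats by -0.10 and -0.14, and Ndst3, which is mainly neural, by 0.22 with an interval from -0.30 to 0.73. Glce, which flips glucuronic to iduronic acid in the chain, differed by 0.04.

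**Figure D2:**
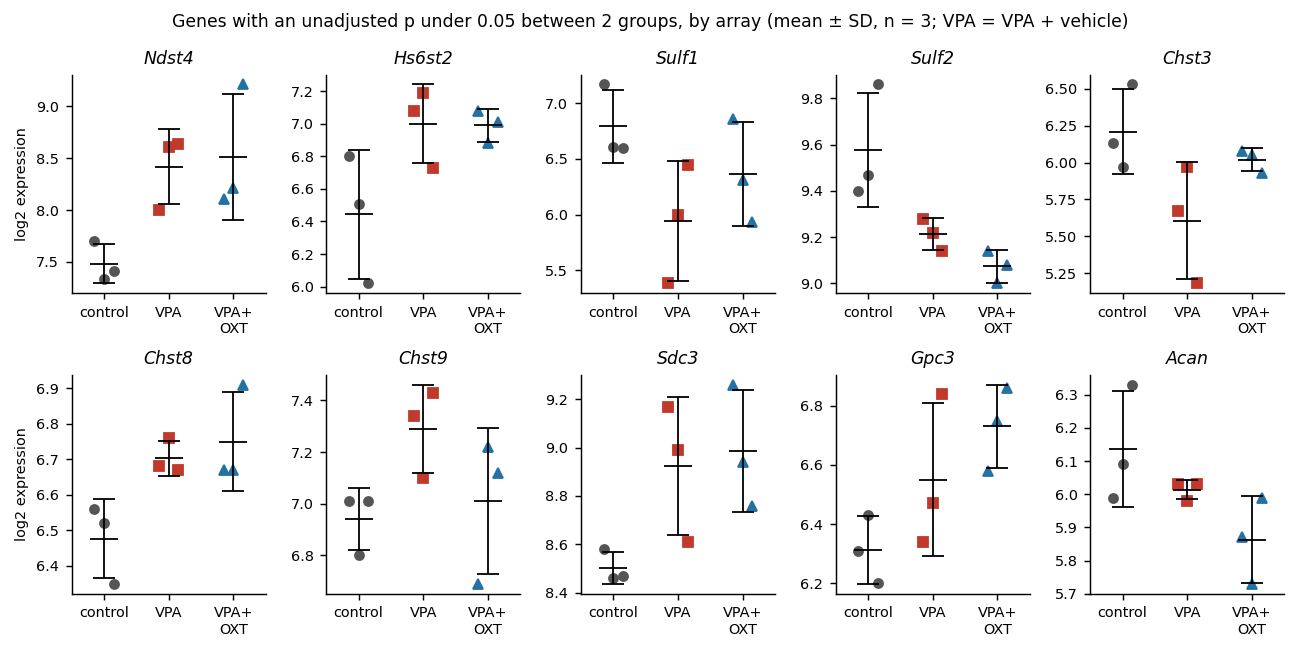
Log2 expression of the 10 genes with an unadjusted p under 0.05 between any 2 groups, with a point for each array, the group mean (long bar) and its SD (short bars, n = 3), and with a separate axis for each gene. Ndst4 lies at 7.34 to 7.70 in control arrays and at 8.00 to 9.21 in the arrays of both VPA groups, while Sulf2 lies at 9.40 to 9.86 and at 9.0 to 9.28.

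Later steps add sulfate at the 2-O and 6-O positions of heparan sulfate, and the 6-O groups are needed for the binding of many fibroblast growth factors. Hs6st2, a 6-O-sulfotransferase, read 6.80, 6.51 and 6.02 in control arrays, 7.08, 7.19 and 6.73 in vehicle-treated VPA arrays and 7.08, 6.88 and 7.01 in OXT-treated VPA arrays. Vehicle-treated VPA array 3 lay below control array 1, whereas the OXT-treated VPA arrays did not overlap with control. The difference from control was 0.56 ± 0.20 (SE; adjusted p = 0.450, limma) in vehicle-treated VPA rats, or 1.47-fold, and 0.55 ± 0.20 (adjusted p = 0.556) in OXT-treated VPA rats.

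Control array 3 was the lowest array for Hs6st2, and without it these differences were 0.345 and 0.335 and neither was called. The call of vehicle-treated VPA rats was also lost without their array 1 (0.52) or array 2 (0.46), and that of OXT-treated VPA rats without their array 1 (0.50) or array 3 (0.54). With the thalamus markers as a covariate the differences were 0.46 and 0.42, and neither was called. With the choroid plexus markers they were 0.83 and 0.60, and both were called. Hs6st1, the form found in most tissues, and Hs2st1, the only 2-O-sulfotransferase of the chain, differed between vehicle-treated VPA and control rats by -0.01 and -0.10.

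The 3-O-sulfotransferases add the rarest sulfate group, which forms the antithrombin site of heparin in the case of Hs3st1, and none of the 6 measured was called. Hs3st1 read 9.38, 9.47 and 9.66 in control arrays, 9.26, 9.36 and 8.81 in vehicle-treated VPA arrays and 9.34, 9.22 and 8.86 in OXT-treated VPA arrays. All control arrays were above all others, with array 3 of each VPA group the lowest, and the differences from control were -0.36 in both groups with intervals from -0.75 to 0.03 and from -0.76 to 0.03. Hs3st3b1 differed from control by 0.32 and 0.49, with intervals from -0.22 to 0.86 and from -0.05 to 1.03, while Hs3st2, Hs3st3a1, Hs3st5 and Hs3st6 differed from control by 0.23 at most in size.

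Sulf1 and Sulf2 are secreted enzymes that remove 6-O-sulfate from finished heparan sulfate at the cell surface, and by doing so they change the response of cells to Wnt and fibroblast growth factors. Sulf2 read 9.40, 9.47 and 9.86 in control arrays, 9.28, 9.22 and 9.14 in vehicle-treated VPA arrays and 9.14, 9.0 and 9.08 in OXT-treated VPA arrays. Every array of the VPA groups was below every control array. The difference from control was -0.36 ± 0.12 (SE; adjusted p = 0.425, limma) in vehicle-treated VPA rats, or 1.29-fold lower, and -0.50 ± 0.12 (adjusted p = 0.296) in OXT-treated VPA rats, or 1.42-fold lower.

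The unadjusted call of Sulf2 held in both groups with each array left out, but without control array 3, its highest array, the differences were smaller, at -0.22 and -0.36. The mean of 7 oligodendrocyte markers was likewise highest in control array 3, at 10.90, compared with 10.42 and 10.41 in the other control arrays and 9.45 to 10.36 in the VPA groups. Of these 7 markers 1, Opalin, was called lower in each VPA group, and of 7 precursor markers 3 were lower in vehicle-treated and 1 in OXT-treated VPA rats. The part of these cells in the difference of Sulf2 was not tested. With the choroid plexus covariate the difference of vehicle-treated VPA rats was -0.41 and not called, and that of OXT-treated VPA rats was -0.51 and called.

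Sulf1 read 7.17, 6.61 and 6.6 in control arrays, 5.38, 6.0 and 6.45 in vehicle-treated VPA arrays and 6.86, 6.31 and 5.93 in OXT-treated VPA arrays. Arrays of vehicle-treated VPA rats lay below all control arrays, whereas OXT-treated VPA arrays ranged across both groups. Sulf1 was 1.80-fold lower in vehicle-treated VPA rats than in control, a difference of -0.85 ± 0.31 (SE; adjusted p = 0.473, limma). OXT-treated VPA rats differed from control by -0.43, with an interval from -1.14 to 0.28, and from vehicle-treated VPA rats by 0.42, with an interval from -0.29 to 1.13. Neither difference was called.

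Of the 25 choroid plexus markers, 16 were lower in vehicle-treated VPA than in control rats (3.98% of all probe sets), as Sulf1 was. Between the VPA groups, where Sulf1 was not called, 17 of these markers were higher in OXT-treated rats (1.86% of all probe sets). In OXT-treated VPA arrays 1 to 3 the mean of the markers was 7.79, 6.99 and 6.01, in the same order as Sulf1. In vehicle-treated VPA arrays it was 5.89, 6.07 and 5.65, so that array 3 had the lowest markers and the highest Sulf1 of that group. With that mean as a covariate the difference of Sulf1 between vehicle-treated VPA and control rats was -0.23 and not called, and that between the VPA groups was -0.08, against its direction without the covariate. The call was also lost without control array 1 (-0.66), without vehicle-treated VPA array 1 (-0.57), and with the thalamus covariate (-0.86). The plot of 4 genes against marker levels shows these values by array.

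**Figure D3:**
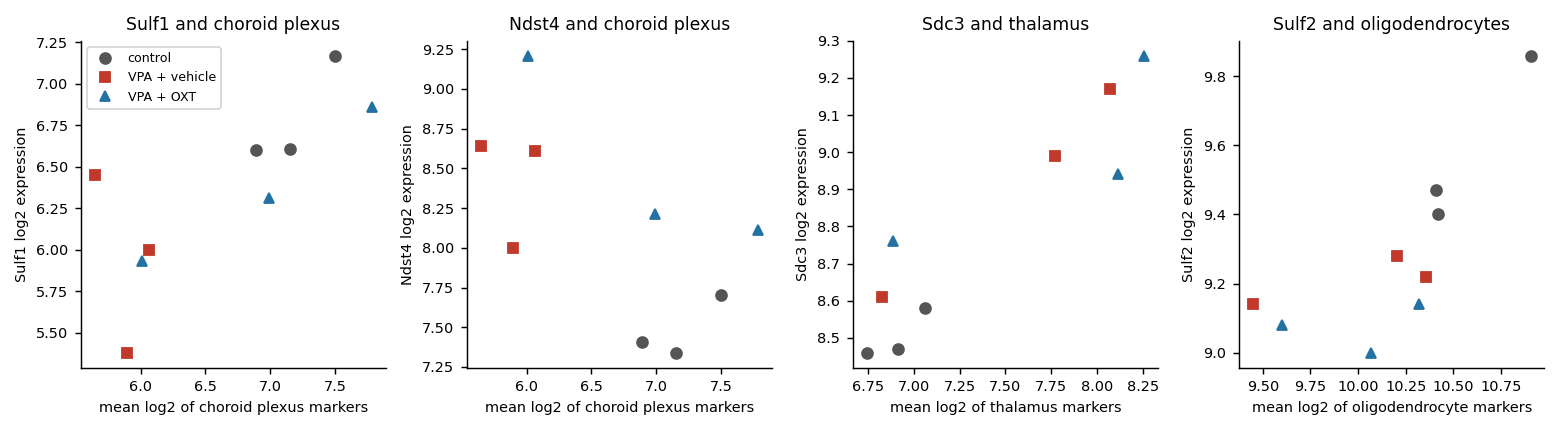
Log2 expression of Sulf1, Ndst4, Sdc3 and Sulf2 (vertical axes) against the mean log2 level of a marker list (horizontal axes), with a point for each of the 9 arrays and the group given by colour and shape. The vehicle-treated VPA arrays lie at 5.65 to 6.07 for choroid plexus markers, and Sdc3 is at 8.94 to 9.26 in the 4 arrays whose thalamus markers average 7.77 to 8.26 and at 8.46 to 8.76 in the other 5.

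Among the enzymes that sulfate chondroitin and dermatan sulfate, 1 of 7 was called, in 1 comparison. Chst3, which sulfates chondroitin at the 6-O position, read 6.13, 5.97 and 6.53 in control arrays, 5.67, 5.97 and 5.18 in vehicle-treated VPA arrays and 6.08, 6.05 and 5.93 in OXT-treated VPA arrays. Vehicle-treated VPA array 2 equalled control array 2 and the other arrays of these groups did not overlap. Its mean in vehicle-treated VPA rats was 1.52-fold below control, a difference of -0.60 ± 0.21 (SE; adjusted p = 0.430, limma), and no group mean of Chst3 was over 6.6. OXT-treated VPA rats were not called against control (-0.19, interval -0.66 to 0.28) or against vehicle-treated VPA rats (0.41, interval -0.05 to 0.88). The latter was 0.595 and called without vehicle-treated VPA array 2, and 0.20 and not called without vehicle-treated VPA array 3.

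The call of Chst3 against control was lost without control array 3 (-0.44), without vehicle-treated VPA array 3 (-0.39), with array weights (-0.38) and with the choroid plexus covariate (-0.47). Chst7, the other 6-O-sulfotransferase, differed between vehicle-treated VPA and control rats by -0.07. The 4-O-sulfotransferases Chst11, Chst12 and Chst13 differed by -0.14, -0.04 and 0.22, Chst14, which acts on dermatan sulfate, by -0.19, and Chst15, which adds a further sulfate to 4-O-sulfated units, by -0.22. Chst15 did not overlap between these groups, at 8.52 to 8.61 in control and 8.21 to 8.40 in vehicle-treated VPA arrays.

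Genes named Chst also include sulfotransferases that act on other glycans, and 2 of these 7 were called. Chst8 and Chst9 place sulfate on N-acetylgalactosamine at the ends of N-glycans, as on pituitary hormones in the case of Chst8. Chst8 read 6.56, 6.52 and 6.35 in control arrays, 6.68, 6.76 and 6.67 in vehicle-treated VPA arrays and 6.67, 6.67 and 6.91 in OXT-treated VPA arrays. All arrays of the VPA groups lay above those of control, by small steps, and the differences were 0.23 ± 0.10 (SE; adjusted p = 0.540, limma) and 0.27 ± 0.10 (adjusted p = 0.547).

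Chst9 read 7.01, 6.80 and 7.01 in control arrays, 7.34, 7.10 and 7.43 in vehicle-treated VPA arrays and 6.69, 7.22 and 7.12 in OXT-treated VPA arrays. It was higher in vehicle-treated VPA than in control rats by 0.35 ± 0.15 (SE; adjusted p = 0.548, limma), without overlap, while OXT-treated VPA array 1 was the lowest of all. For vehicle-treated VPA rats the calls of Chst8 and Chst9 were lost in 10 of 19 alternatives each. Chst8 was lost, for example, under quantile normalization (0.22) and without control array 2 (0.25) or 3 (0.16), and also with each vehicle-treated VPA array left out (0.20 to 0.24) or without OXT-treated VPA array 1 or 2 (0.23). Chst9 was lost with each control array left out (0.28 to 0.385), without vehicle-treated VPA array 1 (0.325) or 3 (0.28), or without OXT-treated VPA array 3 (0.35), and was 0.05 with the choroid plexus covariate. In OXT-treated VPA rats the call of Chst8 was lost without control array 3 (0.21) or without array 3 of that group (0.19). The remaining 5, Chst1, Chst2, Chst4, Chst5 and Chst10, which act on keratan sulfate, related N-acetylglucosamine ends and the HNK-1 epitope, differed from control by -0.23 to 0.13 in both VPA groups and were not called.

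Core proteins that carry heparan sulfate are mainly syndecans, which span the membrane, and glypicans, which are held by a lipid anchor. Sdc3, the syndecan typical of neurons, read 8.58, 8.46 and 8.47 in control arrays, 9.17, 8.99 and 8.61 in vehicle-treated VPA arrays and 9.26, 8.94 and 8.76 in OXT-treated VPA arrays. Every VPA array was above every control array, but array 3 of each VPA group lay close to control. The differences from control were 0.42 ± 0.16 (SE; adjusted p = 0.504, limma), or 1.34-fold, and 0.48 ± 0.16 (adjusted p = 0.523), or 1.40-fold.

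Sdc3 was high in the same 4 arrays in which the thalamus markers were high, and 4 of these 12 markers were called higher and 1 lower in each VPA group against control. With their mean as a covariate the differences of Sdc3 were 0.19 in both groups and neither was called, whereas with the choroid plexus markers they were 0.82 and 0.56 and both were called. The call of vehicle-treated VPA rats was lost without control array 2 (0.40) or 3 (0.40), or without vehicle-treated VPA array 1 (0.30) or 2 (0.39), and that of OXT-treated VPA rats without their array 1 (0.35). The part of thalamic tissue in this difference was not tested further. Sdc1, Sdc2 and Sdc4 differed between vehicle-treated VPA and control rats by -0.01, -0.05 and -0.08, and Sdc1 differed between the VPA groups by 0.27 with an interval from -0.13 to 0.67.

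Of the 5 glypicans, Gpc3 was called in OXT-treated VPA rats. It read 6.31, 6.43 and 6.20 in control arrays, 6.34, 6.47 and 6.84 in vehicle-treated VPA arrays and 6.58, 6.75 and 6.86 in OXT-treated VPA arrays. OXT-treated VPA arrays lay above control by 0.42 ± 0.14 (SE; adjusted p = 0.514, limma) without overlap, while vehicle-treated VPA arrays overlapped with both groups and differed from control by 0.24, with an interval from -0.08 to 0.55. The call was lost without control array 3 (0.36) or OXT-treated VPA array 3 (0.35), and with the thalamus covariate the difference from control was 0.64 and was called. The mean of 12 meningeal and fibroblast markers was 6.78, 6.89 and 6.45 in control arrays, 6.86, 7.15 and 6.47 in vehicle-treated VPA arrays and 7.32, 7.05 and 7.67 in OXT-treated VPA arrays. As with Gpc3, the OXT-treated VPA arrays lay above control without overlap and their array 3 was the highest of all, whereas vehicle-treated VPA array 3, the highest of its group for Gpc3, was the lowest of its group for these markers. Their part in the difference of Gpc3 was not tested. The OXT-treated and vehicle-treated VPA rats differed in Gpc3 by 0.18, with an interval from -0.14 to 0.50.

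Gpc5 was the gene whose VPA groups did not overlap. It lay at 7.55 to 7.74 in vehicle-treated and at 7.76 to 7.79 in OXT-treated VPA arrays, and at 7.76 to 7.89 in control arrays, with a difference between the VPA groups of 0.11 and an interval from -0.07 to 0.29. Gpc2, Gpc4 and Gpc6 differed from control by -0.03 to 0.30 in the VPA groups and were not called. Gpc4, which astrocytes release to promote the formation of excitatory synapses, spread widely within the VPA groups, at 7.0 to 7.62 and 6.84 to 7.58, compared with 7.33 to 7.36 in control arrays.

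Chondroitin sulfate core proteins were called in 1 case. Acan (aggrecan), the core protein that marks perineuronal nets, read 5.99, 6.09 and 6.33 in control arrays, 6.03, 5.98 and 6.03 in vehicle-treated VPA arrays and 5.87, 5.73 and 5.99 in OXT-treated VPA arrays. The highest OXT-treated VPA array equalled the lowest control array, and the difference was -0.27 ± 0.11 (SE; adjusted p = 0.607, limma), with no group mean over 6.6. The call was lost without control array 3 (-0.18), without OXT-treated VPA array 1 (-0.28) or 2 (-0.21), in a fit of these groups alone (-0.27), and with the thalamus covariate (-0.20). Vehicle-treated VPA rats differed in Acan by -0.12, with an interval from -0.37 to 0.12.

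The other lecticans differed little. Ncan (neurocan) read 9.07 in each control array, 9.11, 9.07 and 8.88 in vehicle-treated VPA arrays and 9.07, 8.96 and 9.10 in OXT-treated VPA arrays. Bcan (brevican), which lies around synapses and at nodes, ranged from 8.71 to 8.93 over all arrays, and Vcan (versican) from 7.38 to 8.05, with its highest value in control array 3. Cspg4 (NG2), a marker of oligodendrocyte precursors and pericytes, ranged from 6.30 to 6.91 over all arrays, and Cspg5 (neuroglycan C) from 8.09 to 8.25.

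Partners of the lecticans in the matrix included several called genes. Of 9 genes for link proteins, tenascin-R, related partners and hyaluronan synthases, 4 were lower in vehicle-treated VPA than in control rats (3.98% of all probe sets) and 3 in OXT-treated VPA rats (3.51%), with 0 higher in either. The median difference of the 9 was -0.03 and -0.12, compared with 0.01 and 0.01 over all probe sets. Tnr (tenascin-R), which links lecticans together, read 9.15, 9.12 and 9.28 in control arrays, 8.98, 8.98 and 8.85 in vehicle-treated VPA arrays and 8.90, 8.91 and 8.79 in OXT-treated VPA arrays. Both VPA groups lay below control without overlap, with differences of -0.25 (adjusted p = 0.421, limma) and -0.32 (adjusted p = 0.349).

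Hapln2, the link protein of nodes of Ranvier, which oligodendrocytes make, differed by -0.71 (adjusted p = 0.480, limma) in vehicle-treated VPA rats and by -0.79 in OXT-treated VPA rats, and Hapln4, a link protein of perineuronal nets, by -0.36 and -0.33. Hapln3, a further link protein, was called in vehicle-treated VPA rats at a low level, 4.73 to 4.83 in control and 4.36 to 4.61 in vehicle-treated VPA arrays, a difference of -0.32. Hapln2 was lowest in vehicle-treated VPA array 3 (7.09) and OXT-treated VPA array 3 (7.44), the arrays with the lowest oligodendrocyte markers (9.45 and 9.60). Tnr is also made by oligodendrocytes, and their part in these differences was not tested. Hapln1, the link protein most tied to perineuronal nets, differed from control by -0.01 in vehicle-treated VPA rats. Nets often surround parvalbumin interneurons. The 8 markers listed for these cells were Pvalb, Kcnc1, Kcnc2, Gad1, Gad2, Erbb4, Tac1 and Lhx6. Of these, Gad1 and Gad2 are shared by other inhibitory neurons. The mean of the 8 markers was 7.77 to 7.79 in control arrays. It was 7.97 to 8.14 in vehicle-treated and 7.89 to 8.14 in OXT-treated VPA arrays, lowest in array 3 of each group. In each VPA group 3 of the 8 were called higher than control. Single markers differed from control by -0.06 to 0.96 in vehicle-treated and by -0.14 to 0.97 in OXT-treated VPA rats. Thalamus markers were likewise lowest in array 3 of each VPA group, at 6.82 and 6.89. Neither the number of parvalbumin interneurons nor the part of thalamic tissue in these differences was tested.

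**Figure D4:**
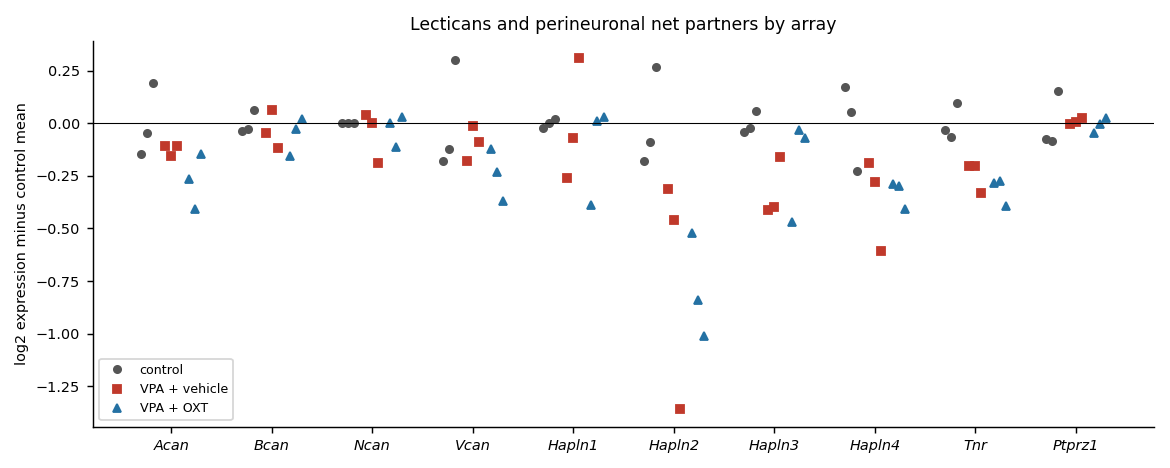
Log2 expression minus the control mean of that gene, with a point for each array. The genes are the lecticans Acan, Bcan, Ncan and Vcan and 6 partners, Hapln1, Hapln2, Hapln3, Hapln4, Tnr and Ptprz1. Hapln2 is the link protein of nodes of Ranvier. All arrays of both VPA groups lie below the control arrays for Tnr and Hapln2, whereas the arrays of Bcan and Ncan overlap around 0.

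In the rest of the pathway calls were few. None of 5 linkage region enzymes, 15 enzymes of lysosomal and extracellular degradation and 8 further heparan sulfate core proteins was called in any comparison. Of 5 further enzymes of chondroitin and dermatan sulfate, Ust, which sulfates uronic acid, was called higher than control in both VPA groups. The differences were 0.37 (adjusted p = 0.462, limma) in vehicle-treated and 0.41 (adjusted p = 0.486, limma) in OXT-treated VPA rats. Dse, the epimerase that makes dermatan sulfate, was lower in vehicle-treated VPA than in control rats, with a difference of -0.30 (adjusted p = 0.223, limma). Dse read 6.34, 6.27 and 6.30 in control arrays, 5.97, 6.01 and 6.04 in vehicle-treated VPA arrays and 6.24, 6.15 and 6.19 in OXT-treated VPA arrays. Its 3 groups did not overlap, and it was higher in OXT-treated than in vehicle-treated VPA rats by 0.19, at an unadjusted p under 0.05 and an adjusted p of 1 (limma).

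Of 11 genes that supply sulfate and sugar nucleotides, Slc35d2, a transporter of nucleotide sugars into the Golgi, was lower in vehicle-treated VPA than in control rats. The difference was -0.63 (adjusted p = 0.260, limma), and no group mean of Slc35d2 was over 6.6. Ugdh, which makes the precursor of glucuronic acid, was higher in OXT-treated VPA than in control rats by 0.24. Of 12 proteoglycan receptors and proteases, Adamts4, a protease that cuts lecticans, was lower in vehicle-treated VPA rats, with a difference of -0.75 (adjusted p = 0.531, limma), and Rtn4r, the Nogo receptor, was lower in OXT-treated VPA rats, at -0.22. Adamts4 was at 7.32 to 8.03 in control arrays, 6.58 to 7.02 in vehicle-treated VPA arrays and 6.18 to 7.40 in OXT-treated VPA arrays, with OXT-treated VPA array 3 the lowest.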

How the data were processed

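Dorsal hippocampus RNA of each rat was hybridized to a Rat Gene 2.0 ST array, 9 in all. The values were deposited by the authors as log2 expression. The submitters' notes name Affymetrix Expression Console, and the methods name Transcriptome Analysis Console for the analysis. Which of them made the deposited values, the summarization method, genome build and annotation version are not given in the sources used here. Values were rounded to 2 decimals in the table, lie between 0.9 and 13.77, and were used as deposited, without a filter.

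Of 30429 probe sets, 18511 carry 1 gene symbol, 575 several and 11343 none, by the platform annotation. All 55 genes matched RefSeq by gene ID with an unchanged symbol. All probe sets entered a linear model with the 3 groups in limma (version 3.58.1, R version 4.3.3) and empirical Bayes moderation, with p adjusted by Benjamini-Hochberg over all probe sets. A gene was called at an unadjusted p under 0.05 for a pair of groups. The study's criteria are stricter, since they ask for the F, 1.5-fold and a level of 6.6 together, which 1 of the 55 genes met. The procedure was tested on simulated data.

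Values of every array are given for genes with an unadjusted p under 0.05 and a difference over 1.5-fold in any pair, for those with an unadjusted p under 0.05 for the F, and for Hs6st2. Other genes shown by array were chosen after their values were seen. The genes, roles, pathway and marker lists were chosen with earlier results of these data known. Alternatives were quantile normalization, median centring, trend and robust moderation, array weights, only the groups compared, a filter on level, a single probe set for each gene, a replicate block, covariates, other call rules, and leaving out each array.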

Additional observations from a re-analysis of the deposited data

How the results depend on the processing

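Counts of called genes depended most on the call rule and on single arrays. For vehicle-treated VPA against control rats, 5 genes were higher at an unadjusted p under 0.05, 3 with the replicate block, 3 with the choroid plexus covariate, 1 when a difference over 1.5-fold was also asked, and 0 at an adjusted p under 0.05, and the count of lower genes went from 3 to 0 at the adjusted p. For OXT-treated VPA against control rats, the adjusted p gave 0 higher and 0 lower genes, the added 1.5-fold gave 1 and 0, and array weights gave 4 lower genes. Between the VPA groups the count of higher genes went from 0 to 2 with the replicate block (Chst12 and Chst14), to 1 with the choroid plexus covariate (Chst14) and to 2 with the thalamus covariate (Chst14 and Gpc3), the last chosen after seeing the data. Sulf1 between the VPA groups changed direction, to -0.0805, with the choroid plexus covariate. None of the 55 genes passed an adjusted p under 0.05 in any alternative fit, although up to 163 of all probe sets did, with the filter on level.

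With each array left out in turn, the genes higher in vehicle-treated VPA than in control rats numbered 1 to 5 and those lower 2 to 4. Between the VPA groups they numbered 0 to 2 and 0 to 1, and between OXT-treated VPA and control rats 2 to 7 and 2 to 3. The F gave 2 to 8. Without control array 3 the counts of higher genes were 1 and 2 against control and the F gave 2.

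Over all probe sets, arrays with the same number did not deviate together, with correlations of -0.21 to 0.10 over 9 pairs and 1 above 0.1. The numbers were therefore not taken as pairs, and the replicate block is an alternative only. Some genes and lists were alike in array 3 of both VPA groups, the lowest of its group for Hs3st1, Sdc3 and Hapln2. It was also the lowest for choroid plexus, thalamus, oligodendrocyte, oligodendrocyte precursor and parvalbumin interneuron markers. Ndst4 was instead highest of its group in array 3 of both VPA groups, at 8.64 and 9.21. For markers of meninges and fibroblasts array 3 was the lowest of the vehicle-treated and the highest of the OXT-treated VPA arrays. Single probe sets per gene, 3 arrays per group and unknown litters limit every value, and the labels give no scan or batch.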

Other observations

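Probe sets that carry several symbols were left out of the counts above. The probe set of Chpf2, a chondroitin polymerase, and Mir671 lay at 6.62 to 6.94 over the 9 arrays, with a difference of 0.02 between vehicle-treated VPA and control rats. The probe set shared by Hs3st3a1 and Hs3st3b1 lay at 5.92 to 6.14, with differences from control of 0.04 and 0.05 in vehicle-treated and OXT-treated VPA rats.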
